A study of Mus musculus with 6 samples.

Results

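The 10 genes studied here are ones that islet cells use to signal to one another, and they were followed in the 4 hormone cell types of the mouse islet. They were selected by symbol from the 32285 genes of each count file, and the 10 members are the ligand genes *Ucn3*, *Pdyn* and *Nrg1* and the receptor genes *Crhr2*, *Sstr1*, *Sstr2*, *Sstr3*, *Sstr5*, *Ghsr* and *Adra2a*. Islets were profiled by single-cell RNA-seq with 1 library per mouse, 3 mice being WT and 3 β14-3-3ζ–KO. All 6 mice were on the C57/BL6 background and 12 to 14 weeks old. The β14-3-3ζ–KO mice carried *Ywhaz* alleles with LoxP sites around exon 4 and the Ins1-CreThor allele, whose Cre is driven by the insulin 1 locus and is therefore active in β cells. The WT controls carried Cre as well, per the study's methods, so Cre was shared by both groups. The comparisons ask where in the islet each ligand and receptor is transcribed, and whether its level differs when β cells lack 14-3-3ζ.

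Islet hormone cells regulate each other over short distances. Urocortin 3, the product of *Ucn3*, is released by mature β cells and acts on the CRF receptor 2 encoded by *Crhr2*, which in δ cells promotes somatostatin release. Somatostatin acts on inhibitory receptors of the Gi-coupled *Sstr* family and restrains both insulin and glucagon release, while *Ghsr* encodes the ghrelin receptor, known as a feature of δ cells. *Adra2a* encodes the α2A-adrenergic receptor, through which noradrenaline lowers insulin secretion, *Pdyn* encodes the precursor of the dynorphin opioid peptides, and *Nrg1* encodes neuregulin 1, a ligand of ErbB receptors.

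The sequences upstream of 4 of these genes are shown because each of the 4 was highest in a single cell type: *Ucn3* in β cells, *Ghsr* and *Crhr2* in δ cells, and *Sstr2* in α cells. Each is the 250 bases that precede the RefSeq start on GRCm38, written 5′ to 3′ on the strand of the gene. The windows are chr13:3945350-3945599 on the minus strand for *Ucn3*, chr3:27371101-27371350 on the plus strand for *Ghsr*, chr6:55133017-55133266 on the minus strand for *Crhr2* and chr11:113619077-113619326 on the plus strand for *Sstr2*, and none overlapped an annotated exon. Capitals mark matches on either strand to 3 motifs. The core of many homeodomain sites is spelled TAAT. The TATA box was searched for as TATAAA. The cAMP response element is TGACGTCA.
Ucn3: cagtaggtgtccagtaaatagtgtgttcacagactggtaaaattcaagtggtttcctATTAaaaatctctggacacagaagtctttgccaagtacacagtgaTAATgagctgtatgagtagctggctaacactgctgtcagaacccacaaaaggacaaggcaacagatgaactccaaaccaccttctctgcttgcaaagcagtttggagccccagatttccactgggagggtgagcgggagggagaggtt
Ghsr: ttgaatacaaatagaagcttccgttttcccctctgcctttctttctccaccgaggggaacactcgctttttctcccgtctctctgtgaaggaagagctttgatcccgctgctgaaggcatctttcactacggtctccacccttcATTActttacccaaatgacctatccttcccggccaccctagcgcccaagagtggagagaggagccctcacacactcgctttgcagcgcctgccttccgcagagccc
Crhr2: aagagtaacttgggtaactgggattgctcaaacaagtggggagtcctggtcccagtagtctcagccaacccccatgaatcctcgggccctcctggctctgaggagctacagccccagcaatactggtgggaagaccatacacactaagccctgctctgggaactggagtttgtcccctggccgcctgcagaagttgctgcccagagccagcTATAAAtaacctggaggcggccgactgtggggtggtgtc
Sstr2: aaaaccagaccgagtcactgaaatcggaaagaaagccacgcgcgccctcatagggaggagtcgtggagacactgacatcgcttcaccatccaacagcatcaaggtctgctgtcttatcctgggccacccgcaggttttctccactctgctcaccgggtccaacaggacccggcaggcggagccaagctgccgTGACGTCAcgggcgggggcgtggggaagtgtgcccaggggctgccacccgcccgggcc
The *Sstr2* window held 1 complete cAMP response element, starting 58 bases before the start, and 1.55% of the 32851 promoters in the table held one (508 promoters). The *Crhr2* window held a TATA box starting 39 bases before the start, as did 12.4% of promoters somewhere in the window. The TAAT core stood at 193 and 148 bases before the start of *Ucn3* and at 106 bases before that of *Ghsr*, and it is common, with 54.9% of promoters holding it. No copy of TGCTGAC (a MAF half-site, 3.81% of promoters) or TGTTTAC (a FOX core, 3.17%) was in these 4 windows. These matches describe letters and were not tested as binding sites.

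The 6 libraries held 43445 barcodes and 74083947 to 98294915 UMIs each, and after filters 8007 cells were assigned to a hormone type by their dominant hormone. They were 6674 β cells, 613 α cells, 504 δ cells and 216 Ppy cells, with 863 to 1390, 47 to 162, 60 to 123 and 16 to 43 cells per library. *Ywhaz*, the deleted gene, measured 153 ± 22.9 counts per 1000000 UMIs (CPM) in WT β cells and 21.6 ± 1.02 in β14-3-3ζ–KO β cells (SD, n = 3), so the labels held in every library. Free RNA was present: the summed CPM of 8 β-cell markers ran from 7416 to 45192 in endothelial cells and from 7994 to 43404 in macrophages, which should lack them, with none of the 8 at 0. These 776 endothelial cells and 409 macrophages are therefore the reference for background in what follows. In δ cells the same sum was 34050 to 59818 CPM, in α cells 10393 to 37558 and in Ppy cells 9616 to 33995. Pairs of libraries shared 1 to 15 barcodes. Levels in CPM are relative to the summed UMIs of a type in a library and are listed in the order WT 1, 2, 3 and KO 1, 2, 3, and shares of cells with a UMI were taken after every cell was thinned to 5000 UMIs.

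*Ucn3* was a β-cell transcript. Its β-cell level was 106, 182, 161, 141, 169 and 154 CPM, a mean of 152 ± 26.3 (SD, n = 6). α cells measured 2.50, 12.4, 8.16, 8.63, 16.7 and 12.3 CPM, δ cells 3.67, 17.5, 13.4, 8.33, 16.8 and 6.40, and Ppy cells 5.08, 7.10, 6.45, 6.63, 18.9 and 6.01. No library of another type reached the lowest β-cell library. Endothelial cells measured 9.12 ± 4.22 CPM and macrophages 11.5 ± 7.60, so the α, δ and Ppy levels lay at background. On the log2 scale β cells were higher by 4.42 ± 0.13 (SE) than δ cells, a 21.4-fold difference (adjusted p = 3.84e-26, edgeR's quasi-likelihood test), by 4.23 ± 0.12 than α cells (adjusted p = 2.28e-26) and by 4.13 ± 0.17 than Ppy cells (adjusted p = 1.41e-21). The orders among α, δ and Ppy cells could not be told apart by the same test (adjusted p = 0.55 for α against δ). After thinning, 47.2% ± 4.83 of β cells held a *Ucn3* UMI, against 5.04% ± 3.36 of endothelial cells (SD, n = 6). At full depth, with median UMIs of 29280 and 11184 per cell, these shares were 86.2% and 11.3%.

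*Pdyn* was present in β cells and, at a lower level, in δ cells. The β-cell level was 173, 126, 66.3, 136, 59.0 and 68.3 CPM, a mean of 105 ± 46.8, and the δ-cell level was 61.9, 53.7, 34.3, 37.0, 54.4 and 38.4 CPM, a mean of 46.6 ± 11.4. In β cells the libraries thus fell into 3 high and 3 low ones, with both genotypes on each side, and the lowest β-cell library lay within the range of δ cells. α cells (2.50 to 5.10 CPM) and Ppy cells (1.69 to 5.53 CPM) were no higher than endothelial cells, at 2.39 to 7.67 CPM. Within libraries β cells exceeded δ cells by 1.79 ± 0.15 on the log2 scale (adjusted p = 4.77e-09), and δ cells exceeded α cells by 3.09 ± 0.32 (adjusted p = 1.79e-07) and Ppy cells by 3.03 ± 0.44 (adjusted p = 3.02e-05). The δ cells held 421 *Pdyn* UMIs, while their 146032 *Ins2* UMIs would bring 46.1 at the β-cell ratio of *Pdyn* to *Ins2*. α cells held 46 against 63.5 on the same reckoning, and for *Ucn3*, at background there, 120 against 88.8. Carried-over RNA as a part of these signals was not tested. The share of cells with a UMI was 24.1% ± 7.56 in β cells, 15.1% ± 1.39 in δ cells and 3.71% ± 1.25 in endothelial cells.

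*Nrg1* was a low transcript of δ and α cells. δ cells held 69 UMIs, at 9.44, 4.99, 9.19, 9.25, 2.59 and 7.11 CPM, and α cells 39 UMIs, at 0.83, 3.10, 5.10, 0.62, 6.03 and 3.58 CPM. These ranges overlapped. β cells lay between 0.15 and 0.45 CPM, Ppy cells held 1 UMI, endothelial cells none and macrophages 4. *Nrg1* did not pass the low-count filter of the comparison between types. With the filter lifted, δ cells exceeded β cells by 4.10 ± 0.36 on the log2 scale (adjusted p = 7.04e-28) and α cells exceeded β cells by 3.12 ± 0.41 (adjusted p = 4.40e-13). δ and α cells differed by 0.98 ± 0.39, which missed the threshold (adjusted p = 0.0542). The gene spans chr8:31814551-32884029 on the minus strand of GRCm38 and overlaps 2 annotated genes on the opposite strand, *Gm26578* and *Gm22140*.

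**Figure D1:**
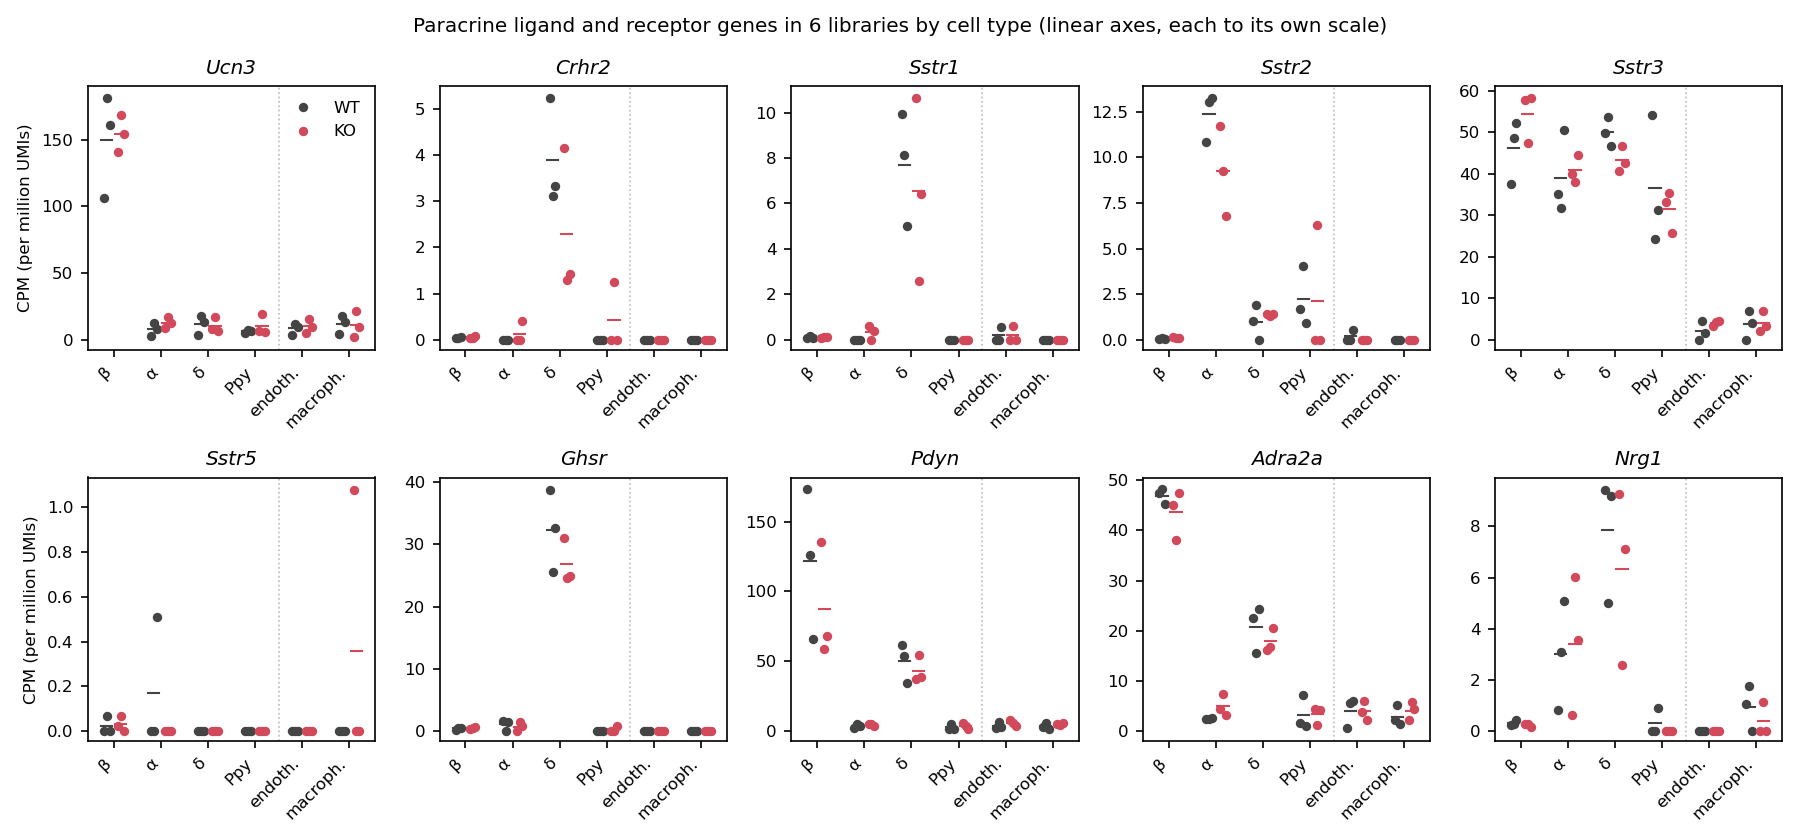
Level of each ligand and receptor gene in CPM (vertical axes, 1 panel per gene, each with its own scale) in β, α, δ, Ppy, endothelial and macrophage cells, with 1 point per library colored by genotype and a short bar at the mean of the 3 libraries of a genotype. *Ucn3* stands out in β cells (106 to 182 CPM), *Ghsr*, *Sstr1* and *Crhr2* in δ cells, *Sstr2* in α cells, and *Sstr3* is seen in all 4 hormone types but not above 6.999 CPM in the other cells.

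*Crhr2*, the receptor for urocortin 3, was found almost entirely in δ cells, at a low level. δ cells measured 5.24, 3.12, 3.34, 4.16, 1.30 and 1.42 CPM from 31 UMIs in all. Every δ-cell library was above every library of the other types, but only just in KO 2, where Ppy cells measured 1.26 CPM. In that library δ cells (771993 UMIs) and Ppy cells (793212 UMIs) each held a single *Crhr2* UMI, so this order is not firm. The much deeper β cells held 10 UMIs, α cells 1 and Ppy cells 1. Endothelial cells and macrophages held none. After thinning, 8 of 504 δ cells had a UMI (1.59%, 95% exact Clopper-Pearson interval 0.688 to 3.10%), against 0 of 613 α cells. That 0 allows a share of up to 0.489% when the limit is set at 3 counts of the total, and of up to 0.600% by the Clopper-Pearson interval. *Crhr2* did not pass the low-count filter, and with the filter lifted δ cells exceeded β cells by 5.17 ± 0.65 on the log2 scale (adjusted p = 1.64e-14, edgeR).

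*Ghsr* was the clearest δ-cell receptor. Its δ-cell level was 38.8, 25.6, 32.6, 31.0, 24.6 and 24.9 CPM from 275 UMIs, a mean of 29.6 ± 5.63, and no α-cell library exceeded 1.67 CPM. β cells lay between 0.23 and 0.71 CPM, Ppy cells held 1 UMI, and endothelial cells and macrophages held none. δ cells thus stood apart from every other type in every library. The difference was 5.46 ± 0.22 on the log2 scale against β cells, or 44.0-fold (adjusted p = 1.15e-27), 4.87 ± 0.35 against α cells (adjusted p = 5.14e-17) and 6.64 ± 0.63 against Ppy cells (adjusted p = 1.46e-12). β, α and Ppy cells were not separated from one another (adjusted p = 0.381 for α against β cells). A UMI was seen in 12.4% ± 2.64 of thinned δ cells and 0.172% ± 0.176 of thinned β cells.

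The somatostatin receptors divided among the types. *Sstr1* was a δ-cell transcript, at 9.96, 8.12, 5.01, 10.6, 2.59 and 6.40 CPM from 72 UMIs, against 21 UMIs in β cells, 2 in α cells, 2 in endothelial cells and none in Ppy cells or macrophages. No library of another type passed 0.62 CPM, so the δ-cell range stood clear. With the low-count filter lifted the difference from β cells was 5.41 ± 0.47 on the log2 scale (adjusted p = 2.65e-29). *Sstr2* was highest in α cells, at 10.9, 13.0, 13.3, 11.7, 9.27 and 6.76 CPM from 116 UMIs. Ppy cells measured 1.69, 4.06, 0.92, 0, 6.30 and 0 CPM, and δ cells 1.05, 1.87, 0, 1.39, 1.30 and 1.42 CPM, each from 11 UMIs. β cells did not exceed 0.16 CPM. α cells exceeded β cells by 6.44 ± 0.36 on the log2 scale (adjusted p = 5.93e-22), δ cells by 3.32 ± 0.45 (adjusted p = 1.49e-08) and Ppy cells by 1.94 ± 0.48 (adjusted p = 0.00172). Ppy and δ cells were not separated (1.38 ± 0.75, adjusted p = 0.186), although both exceeded β cells. *Sstr2* overlaps *Slc39a11* on the opposite strand, and whether strand was used in counting is not given in the sources used here.

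*Sstr3* differed from its relatives in being present at a like level in all 4 hormone types. β cells measured 37.6, 48.6, 52.2, 57.8, 47.5 and 58.3 CPM, α cells 35.1, 31.7, 50.5, 40.1, 38.0 and 44.5, δ cells 49.8, 53.7, 46.8, 40.7, 46.6 and 42.7, and Ppy cells 54.2, 24.3, 31.3, 33.2, 35.3 and 25.7. The ranges of the 4 types overlapped. Endothelial cells (0 to 4.58 CPM) and macrophages (0 to 6.999 CPM) lay below all of them. With normalization by trimmed means (TMM), β cells exceeded α cells by 0.68 ± 0.09 on the log2 scale (adjusted p = 1.12e-08), δ cells by 0.65 ± 0.09 (adjusted p = 5.87e-08) and Ppy cells by 0.53 ± 0.13 (adjusted p = 0.000394), all under the required difference of 1. With scaling by total UMIs alone, β and δ cells differed by 0.09 (adjusted p = 0.455), so the order of these 2 types rests on the scaling. The share of cells with a UMI was 22.4% ± 2.86 in β, 18.9% ± 2.74 in α, 21.2% ± 2.57 in δ and 15.7% ± 4.84 in Ppy cells, against 1.96% ± 1.96 in endothelial cells. *Sstr5* was not detectable above background at this depth. It had 5 UMIs in all β cells, 1 in α cells and 1 in macrophages, and 0 of 504 δ cells had one, which allows a share of up to 0.595% by the limit of 3 counts and 0.729% by the Clopper-Pearson interval.

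*Adra2a* followed *Pdyn* in being highest in β cells and next in δ cells. β cells measured 47.4, 48.2, 45.2, 45.1, 38.2 and 47.5 CPM, a mean of 45.3 ± 3.70, and δ cells 22.5, 15.6, 24.2, 16.2, 16.8 and 20.6 CPM, a mean of 19.3 ± 3.63. The 2 ranges did not overlap. α cells (2.48 to 7.42 CPM) and Ppy cells (0.92 to 7.10 CPM) overlapped the range of endothelial cells (0.60 to 6.05 CPM). β cells exceeded δ cells by 1.81 ± 0.12 on the log2 scale, or 3.50-fold (adjusted p = 3.52e-19), and δ cells exceeded α cells by 2.09 ± 0.24 (adjusted p = 1.77e-10) and Ppy cells by 1.79 ± 0.32 (adjusted p = 1.08e-05). δ cells held 174 *Adra2a* UMIs where their *Ins2* RNA would bring 19.6 at the β-cell ratio, and carried-over RNA was not tested here either. A UMI was seen in 19.3% ± 1.82 of thinned β cells, 6.90% ± 1.81 of δ cells and 1.96% ± 1.43 of endothelial cells.

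**Figure D2:**
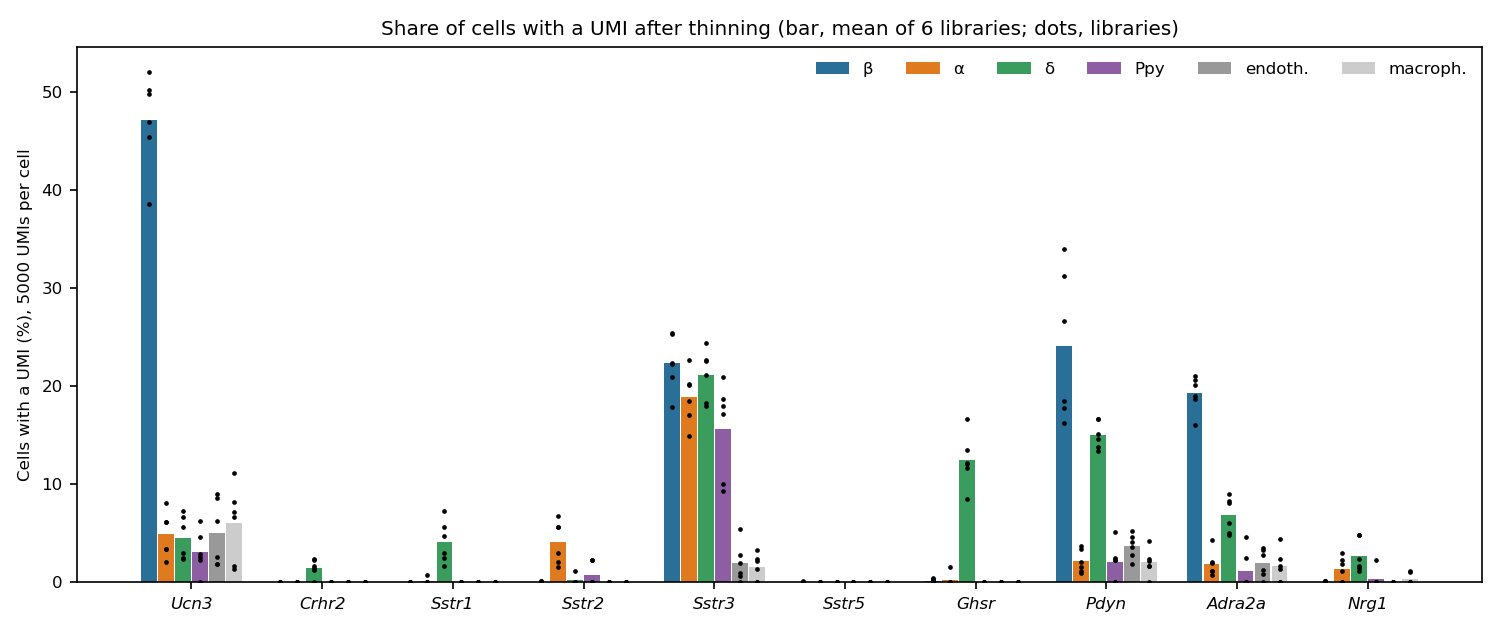
Share of cells with at least 1 UMI (percent, vertical axis) after thinning each cell to 5000 UMIs, by gene and cell type, with bars at the mean of the 6 libraries and dots for single libraries. *Sstr3* is seen in 15.7% to 22.4% of cells of the 4 hormone types, whereas *Ucn3* in cells other than β cells stays at the 5.04% of endothelial cells or within its spread.

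Calls between types required an adjusted p under 0.05 and a log2 difference above 1 among the 10429 genes tested, and 6 of the 10 members passed the low-count filter. A difference of 1 or more was common. Over all genes tested 13.9% were called between β and α cells, 13.5% between β and δ, 15.5% between β and Ppy, 11.3% between α and δ, 6.22% between α and Ppy, and 9.02% between δ and Ppy cells. Since a gene high in 1 type alone passes the filter through that type, the members' counts are a description: 3 higher and 1 lower in β against α cells, 3 higher and 2 lower in β against δ, 3 higher and 1 lower in β against Ppy, 1 higher and 3 lower in α against δ, 1 higher in α against Ppy and 3 higher in δ against Ppy.

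No member passed the test for genotype in any of the 4 types. In β cells 2 of 14283 genes were called (0.014%, adjusted p under 0.05 and log2 fold change above 0.1), and these were *Ywhaz*, lower by -2.83 ± 0.10 on the log2 scale (adjusted p = 1.85e-05), and *Gstp1*, a glutathione transferase gene, at -1.15 ± 0.12 (adjusted p = 0.042). *Gstp1* has a near-identical neighbor, *Gstp2*, so its counts are uncertain, and leaving out any 1 of the 6 libraries left 1 call. Though not called in α cells, *Gstp1* was lower there too, at 11.7, 15.5 and 16.3 CPM in WT and 1.85, 8.35 and 7.56 in KO. In δ and Ppy cells its ranges overlapped between genotypes. In α, δ and Ppy cells edgeR called 0 of 9937, 0 of 10108 and 0 of 7238 genes (0% in each), with 380, 331 and 325 genes at an unadjusted p under 0.05 and 0 calls by DESeq2 in each. A fit blocked by replicate number, since same-number libraries deviated together, most in β and α cells, gave other counts. They were 5 in β, 6 in α, 6 in δ and 14 in Ppy cells, again with no member called. In β cells 584 genes had an unadjusted p under 0.05 in edgeR without the block and 1407 with it. The members that passed the filter were 6 in β cells, 3 in α cells, 7 in δ cells and 1 in Ppy cells. Their median log2 fold change was -0.04 in β cells, beside 0.003 over all genes tested, and -0.21 in δ cells, beside -0.001.

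Among the ligands, *Ucn3* in β cells averaged 150 ± 38.8 CPM in WT and 155 ± 14.1 in KO (SD, n = 3), a log2 fold change of 0.06 ± 0.16 (adjusted p = 0.979). *Pdyn* in β cells averaged 122 ± 53.5 CPM in WT and 87.7 ± 41.8 in KO, at -0.54 ± 0.53 (adjusted p = 0.963, edgeR), with the 2 groups overlapping. Without WT 1 the value was -0.081, and without KO 1 it was -0.98. *Pdyn* in δ cells was at -0.30 ± 0.19 (adjusted p = 1.00). In α cells *Ucn3* stood at 0.66 ± 0.35 (adjusted p = 1.00, edgeR), at a level within the background given above.

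Among the receptors, *Sstr3* had the smallest unadjusted p in β cells. Its mean was 46.1 ± 7.62 CPM in WT and 54.5 ± 6.07 in KO β cells, at 0.23 ± 0.08 on the log2 scale (adjusted p = 0.963, edgeR), and 1 KO library lay below 2 WT libraries. With the replicate block the value was 0.24 (adjusted p = 0.342, edgeR). The thinned share of β cells with an *Sstr3* UMI was 20.3% ± 2.27 in WT and 24.4% ± 1.75 in KO, without overlap (exact permutation test, 2-sided, p = 0.1, the smallest 3 against 3 libraries allow, and 1.00 after adjustment over the 40 pairs of member and type). Among all pairs of gene and type with at least 30 UMIs, 9.03% did not overlap in thinned share. The separation rested on the random draw of UMIs: the expected share over all draws was 20.6% ± 2.93 in WT and 23.9% ± 2.53 in KO β cells, and the ranges then overlapped (exact permutation test, 2-sided, p = 0.3). In δ cells the order was the opposite, with 50.1 ± 3.45 CPM in WT and 43.3 ± 3.01 in KO and a log2 fold change of -0.22 ± 0.15 (adjusted p = 1.00, edgeR). The difference between the 2 genotype effects, tested as an interaction, was -0.47 ± 0.19 (adjusted p = 1.00, edgeR), so it did not pass the correction. The thinned share of δ cells with an *Sstr3* UMI was 21.1% ± 2.71 in WT and 21.3% ± 3.03 in KO. *Ghsr* in δ cells was at -0.22 ± 0.20, *Adra2a* in β cells at -0.13 ± 0.09 and *Sstr2* in α cells at -0.47 ± 0.28, none past the test (adjusted p = 1.00, 0.963 and 1.00, edgeR).

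The genotype-by-type tests called 1 gene for α against β cells (0.00959%), 1 for δ against β cells (0.00959%) and 2 for Ppy against β cells (0.0192%), and no member was among them. Of 22 pairs of member and type with 30 or more UMIs, 2 had WT and KO libraries that did not overlap in CPM, *Sstr3* in δ cells and *Adra2a* in α cells. The latter measured 2.51 ± 0.03 CPM in WT and 4.97 ± 2.19 in KO, both means lying inside the span of endothelial cells. Over all genes tested, libraries did not overlap for 6.76% in β, 8.7% in α, 8.27% in δ and 10.2% in Ppy cells, so 2 of 22 is near that background.

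**Figure D3:**
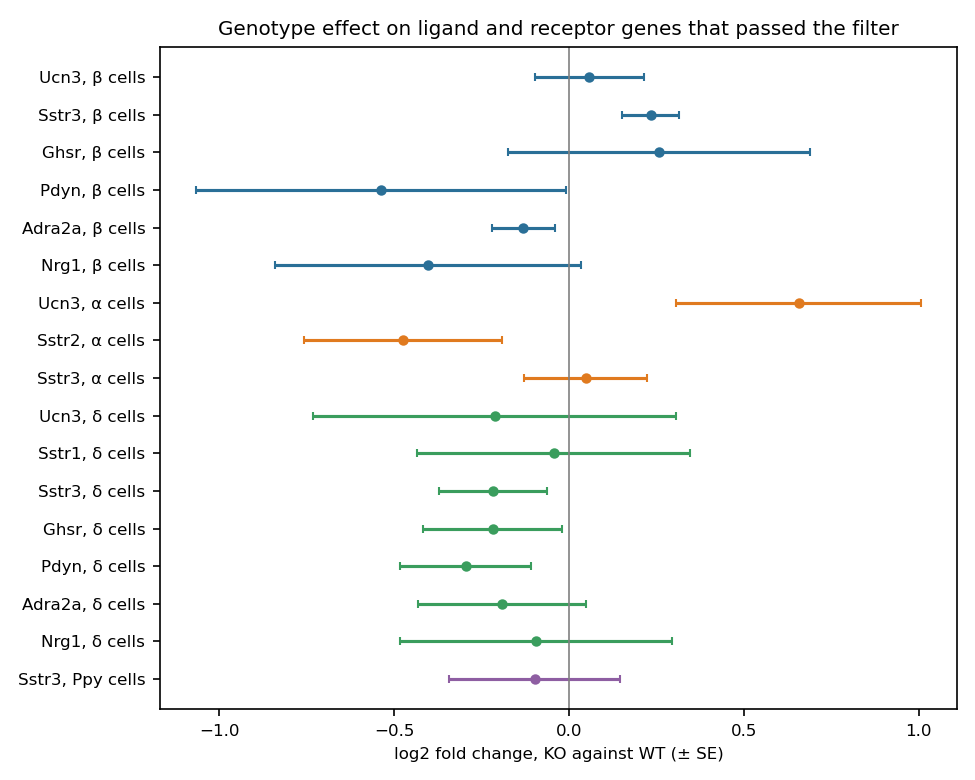
Log2 fold change of β14-3-3ζ–KO against WT (horizontal axis) for each member that passed the low-count filter in each type. Bars show 1 SE, derived from the edgeR fold change and p-value. The values in β cells lie between -0.54 and 0.26 and no member passed the test in any type.

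Over single β cells the genes differed in how evenly they were spread. After thinning, *Pdyn* was the most uneven: if every β cell of a library had the same mean, 35.4% would hold a UMI by the Poisson distribution, but 24.1% did. The variance of its UMIs over cells was 2.50 ± 0.49 times the mean, and the 10% of cells with the most UMIs held 67.2% ± 7.18 of the UMIs (SD over 6 libraries). That share was 39.4% for *Ucn3*, 53.2% for *Sstr3* and 59.6% for *Adra2a*. Both measures also depend on the mean level, which differed between these genes. *Ucn3* was less uneven, with 47.2% of cells against 52.8% for equal cells and a variance of 1.35 ± 0.05 times the mean. *Sstr3* was close to equal cells, at 22.4% against 23.0% and 1.07 ± 0.08 times, and *Adra2a* stood at 19.3% against 20.3% and 1.13 ± 0.04 times. In δ cells *Pdyn* was seen in 15.1% of cells against 19.5% for equal cells, with a variance of 1.69 ± 0.42 times the mean.

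The β cells with 3 or more *Pdyn* UMIs after thinning were 311, with 25 to 93 per library, and 5097 had none. *Adra2a* was seen in 24.6% ± 6.01 of the former and 18.7% ± 1.71 of the latter, and was higher in 5 of 6 libraries. *Ucn3* was seen in 42.9% ± 4.25 against 47.3% ± 4.44, higher in 2 of 6, and *Sstr3* in 20.0% ± 5.04 against 23.1% ± 3.75, also higher in 2 of 6. *Sst*, the somatostatin gene, was seen in 46.0% of cells with high *Pdyn* and 47.6% of those without, higher in 1 of 6 libraries. By mean UMIs per cell, *Sst* was higher with high *Pdyn* in WT 2 (7.02 against 2.79) and WT 3 (2.96 against 2.52). It was lower in each of the other libraries. The typing had already limited *Sst* in all β cells, and a part of δ-cell RNA in the *Pdyn* signal was not tested. These are descriptions of cells that share libraries, and no test was made on them.

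**Figure D4:**
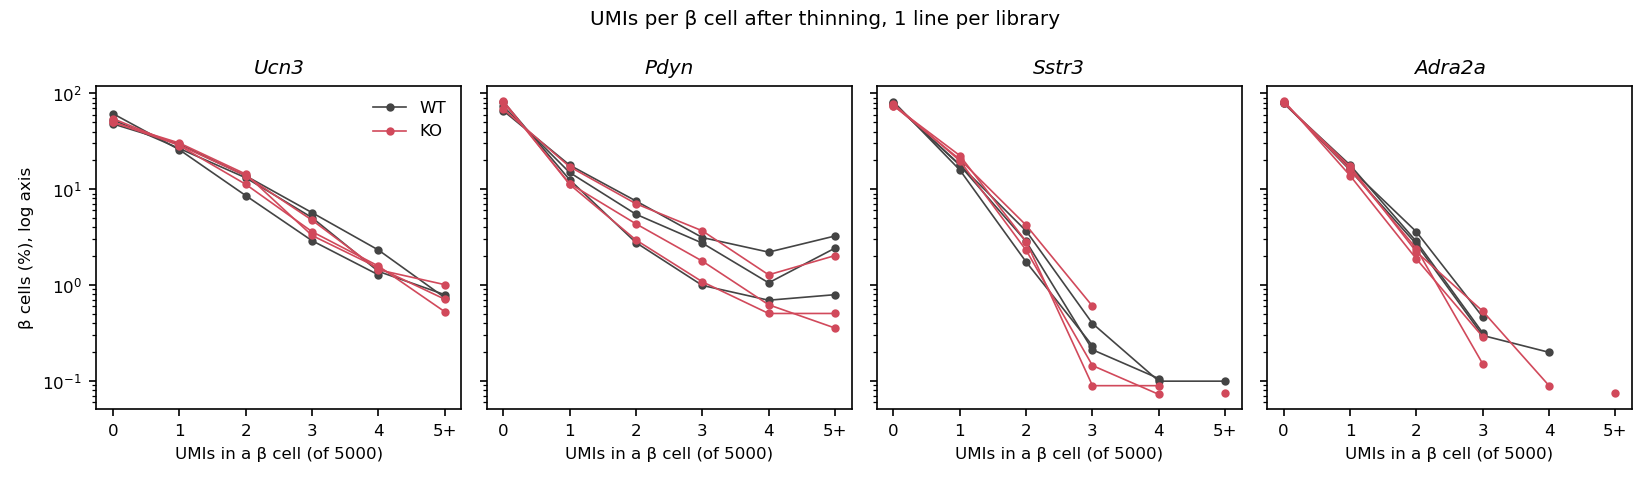
Share of β cells (percent, log axis) by the number of UMIs per cell after thinning to 5000 UMIs, for *Ucn3*, *Pdyn*, *Sstr3* and *Adra2a*, with 1 line per library. On average 4.85% of β cells held 3 or more *Pdyn* UMIs, at a mean of 0.454 UMIs per cell. For *Ucn3* it was 6.42% at a higher mean of 0.757. *Sstr3* had 0.368% at a mean of 0.262, and *Adra2a* 0.401% at 0.227.

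Over the 24 sums of 6 libraries by 4 types, the genes that followed each member most closely were picked from 10167 genes by Pearson's r of log2(CPM + 1), as a description. These sums share libraries and depth. *Ucn3* was followed by *Mafa*, a β-cell transcription factor gene (r = 0.978), *Prss53* (0.973) and *Sytl4* (0.967). *Ghsr* was followed by *Ppp1r17* (0.984), *Lingo1* (0.980) and *Ramp1* (0.975), and *Crhr2* by *Fstl5* (0.927). For *Sstr2* the first was *Prex1* (0.917), for *Sstr3* *Npepl1* (0.857) and for *Nrg1* *Khdrbs2* (0.941). *Pdyn* was followed by *Rasgrf1* (0.961) and *Iapp*, the amylin gene (0.960), and the gene most like *Adra2a* was *Pdyn* itself (0.953). No gene exceeded 0.506 for *Sstr5*.

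The wider families were read from a list of 55 genes: CRF, somatostatin, ghrelin, opioid, adrenergic and ErbB systems, other amine and peptide receptors, and Gi signaling. In the genotype comparisons 22, 15, 12 and 11 of them were tested in β, α, δ and Ppy cells, and none was called. Between types 18 were tested, of which 5 were higher and 7 lower in β against α cells, 6 higher and 4 lower in β against δ cells, 6 higher and 7 lower in β against Ppy cells, 4 higher and 2 lower in α against δ cells, 2 higher and 2 lower in α against Ppy cells, and 1 higher and 5 lower in δ against Ppy cells. In the same order, 13.9, 13.5, 15.5, 11.3, 6.22 and 9.02% of all genes tested were called. These counts too are a description, since a gene high in 1 type passes the filter through that type. *Sst*, by which δ cells were typed, was among the calls of each pair with δ cells. Leaving out the members *Ucn3*, *Crhr2* and *Ghsr* themselves, no gene of the CRF or ghrelin lists reached 5 CPM in any of the 4 types, and *Crhr1*, the other urocortin receptor, measured 0.55 ± 0.14 CPM in β cells (SD, n = 6).

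The adrenergic family split by type. *Adrb1*, the β1-adrenergic receptor, was an α-cell transcript at 18.8 ± 3.54 CPM, against 0.12 ± 0.09 in β cells, 1.54 in endothelial cells and 8.75 ± 3.33 in macrophages (α against β cells 6.84 ± 0.31 on the log2 scale, adjusted p = 1.98e-25), while *Adra2a* was low there. *Adra1a*, another adrenergic receptor, was at 2.12 ± 1.01 CPM in α cells and 1.87 ± 0.80 in δ cells. In the GABA, acetylcholine and galanin receptor list, *Gabbr2*, a subunit of the GABA-B receptor, was at 51.6 ± 7.67 CPM in β cells and exceeded δ cells by 4.29 ± 0.16 on the log2 scale (adjusted p = 2.43e-29). *Chrm3*, a muscarinic acetylcholine receptor, was at 22.3 ± 1.68 CPM in β cells and 27.4 ± 2.99 in Ppy cells, and its difference between δ and β cells was -2.44 ± 0.16. *Gabbr1*, the other GABA-B subunit, was at 40.1 ± 4.74 CPM in δ cells but also at 26.3 in endothelial cells.

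In the ErbB list *Egfr*, the epidermal growth factor receptor, was at 12.8 ± 1.49 CPM in β cells, above α cells by 3.59 ± 0.25 on the log2 scale (adjusted p = 6.84e-18). *Erbb3*, a neuregulin receptor, was at 5.00 ± 1.17 CPM in α and 4.49 ± 1.50 in δ cells, with 2.79 in macrophages, and *Nrg2*, a relative of *Nrg1*, at 6.93 ± 3.21 and 6.38 ± 1.15. In the opioid list *Pomc*, the precursor of β-endorphin, was at 18.3 ± 3.52 CPM in β cells and 18.2 ± 3.13 in δ cells, with 10.4 in the higher of the 2 reference cell types. *Pnoc*, the nociceptin precursor, was at 4.59 ± 2.18 CPM in α and 6.001 ± 5.95 in Ppy cells. Downstream, *Gnas*, the stimulatory G protein subunit, measured 5271 ± 493 CPM in α, 2548 ± 151 in δ, 1551 ± 76.2 in Ppy and 740 ± 22.2 in β cells, whereas *Gnai2*, an inhibitory subunit, was highest in β cells at 669 ± 134, with 988 in 1 of the reference types. *Sst* itself, which defined δ cells, measured 109797 ± 2222 CPM there and 856 ± 212 in β cells.

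**Figure D5:**
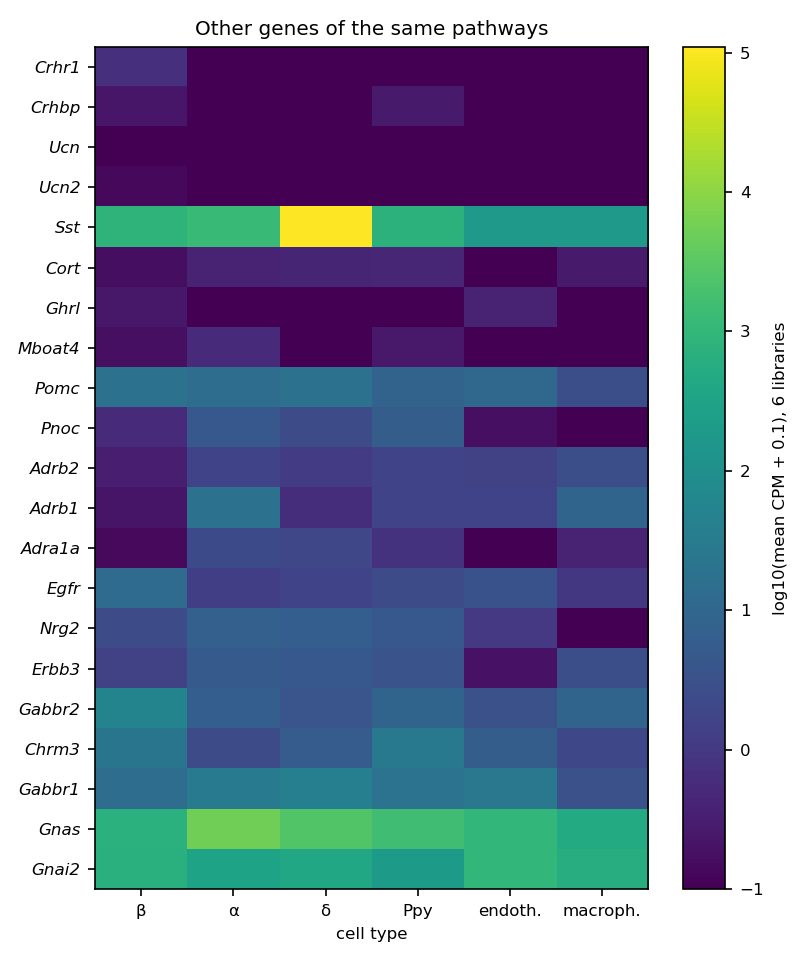
Mean level over 6 libraries, as log10(CPM + 0.1), of pathway genes among the highest of their subgroup in a type (rows), in the 6 cell types (columns). Along its row *Adrb1* is brightest in α cells, and *Gabbr2* and *Egfr* are brightest in β cells.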

How the data were processed

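Single islet cells from 6 mice, 3 WT and 3 β14-3-3ζ–KO, were profiled with 10x Genomics 3′ libraries. The authors deposited raw UMI counts per gene and barcode, which were not normalized. The submitters' processing notes name Cell Ranger 6.0.2, Seurat and the mm10 build. Gene positions came from GENCODE vM21 (GRCm38) and promoter sequences from RefSeq (GRCm38, 7 of 10 members matched). No columns of the tables were left unmapped.

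Barcodes under 500 genes (3485) or above 10% mitochondrial UMIs (12956) were removed, leaving 27004. The automatic Scrublet threshold marked 2.089% of 1 library and at most 0.046% of the others, so the top-scored barcodes, 0.8% per 1000 barcodes of a library, were removed as doublets instead (1797). Cells with at least 5000 UMIs were typed by insulin (*Ins1* plus *Ins2*), *Gcg*, *Sst* or *Ppy*. That hormone had to reach 25% of its typical share of UMIs, with the other hormones under 20% of theirs. Markers of other cell types made up at most 0.1% of UMIs and endocrine markers at least 0.3%. The hormone limits were set from hormone shares before any member was read. Endothelial cells and macrophages held UMIs of at least 3 of their own markers, together 0.2% of UMIs or more, with every hormone under 20% of its typical share. Markers of the remaining non-endocrine types made up at most 0.1% there too. The members, the gene lists and the tests were chosen with earlier results of these data known. Named genes were the members in every type, *Ywhaz*, pathway genes called for genotype or among the 2 highest of their subgroup in a type, and genes among the 3 most alike, of which those for *Sstr1* are not reported here. *Gstp1*, *Gstp2*, *Gm26578*, *Gm22140*, *Slc39a11* and *Ighm* were named after their values were seen.

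UMIs were summed per library and type and tested with edgeR 4.0.16 (quasi-likelihood, TMM, filterByExpr, Benjamini-Hochberg over all genes tested), without a block for genotype and with the library as a block between types. Standard errors accompany log2 values, and those of edgeR were derived from the log2 value and its p-value. DESeq2 1.42.0 and limma 3.58.1 gave alternatives, as did other filters, cell limits, doublet settings and fits without single libraries. Scaling by total UMIs alone, and shares expected over all thinning draws (hypergeometric), were chosen after seeing the data. Differences between 3 WT and 3 KO shares used exact permutation tests. The labels share replicate numbers across genotypes, and same-number libraries deviated together in β cells (r = 0.621, 0.513 and 0.255 over genes) and α cells (0.331, 0.173 and 0.153). The values were lower, and not all above 0.1, in δ cells (0.225, 0.122 and 0.0334) and Ppy cells (0.0903, 0.0843 and 0.0186). In all 4 types each WT library had its highest r with the KO library of its own number. Each library is 1 mouse, and no 2 libraries of the same genotype agreed within sampling noise. On simulated data for KO against WT in β cells (14349 genes) 95.9% of genes changed by 1 on the log2 scale were called, and in δ cells (10031 genes) 76.3%. The simulation gave every gene the same spread between libraries and changed only genes above a minimum of UMIs. It therefore does not give the power for a gene as variable as *Pdyn* in β cells (SE 0.53). Unchanged genes were also called, 13 in β cells and 12 in δ cells. Intervals and limits at 0 cover counting error only.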

Additional observations from a re-analysis of the deposited data

Results flagged for a closer look

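The genotype effect on *Ywhaz*, the deleted gene, differed between β cells and each other type when the difference itself was tested in edgeR. On the log2 scale the effect in α cells was higher than in β cells by 2.77, in δ cells by 2.87 and in Ppy cells by 2.63. In β cells *Ywhaz* fell by 2.83 on the log2 scale, while its mean was 131 CPM in WT and 125 in KO α cells, 204 and 204 in δ cells, and 88.4 and 71.9 in Ppy cells.

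*Ighm*, an immunoglobulin heavy chain gene, differed in its genotype effect between Ppy and β cells by 6.05 on the log2 scale (adjusted p = 0.0466, edgeR). It rested on 1 library: Ppy cells of KO 2 held 2473 *Ighm* UMIs (3118 CPM), those of WT 2 held 14, and the other 4 libraries none. In β cells the same 2 libraries were highest, with 256 CPM in KO 2 and 86.2 CPM in WT 2. The 3 B-cell markers summed to at most 16.2 CPM in WT and 15.1 CPM in KO Ppy cells, and their part in the result was not tested.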

How the results depend on the processing

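No member passed the test for genotype in any alternative. Of the alternative values of members for genotype in β and δ cells, 177 kept their direction and 12 reversed. Directions in α and Ppy cells were not counted. *Ucn3* in β cells (0.06 on the log2 scale) ranged from -0.078 to 0.19 when single libraries were left out, *Ghsr* in β cells from -0.030 to 0.55, *Sstr1* in δ cells from -0.64 to 0.17 and *Nrg1* in δ cells from -0.49 to 0.10. *Ucn3* in δ cells was 0.012 with the replicate block, 0.018 with looser hormone limits and -0.75 to 0.34 without single libraries. Alternatives were run for 6 differences between types, and their 83 values kept their direction and side of the threshold: *Ucn3*, *Sstr3*, *Pdyn* and *Adra2a* in β against δ cells, *Sstr2* in α against Ppy cells and *Ghsr* in δ against α cells. *Ghsr* (4.87) was 3.98 with looser and 6.27 with stricter hormone limits, and *Sstr2* (1.94) was 1.64 without KO 1 and 2.66 without KO 2.

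Genes called for genotype in β cells (2) were 6 with DESeq2, 5 with the replicate block, 1 without doublet calls, 1 without KO β cells holding a *Ywhaz* UMI, and 1 without each single library. In α cells (0) they were 11 without the filter, 6 with the block, 1 without doublet calls and 0 to 3 without single libraries. In δ cells (0) they were 6 with the block and 0 to 2 without single libraries. In Ppy cells (0) they were 5 without the filter, 14 with the block, 1 without doublet calls, 1 with stricter hormone limits and 0 to 5 without single libraries. The genotype-by-type counts were 1 to 6 in α, 1 to 2 in δ and 1 to 3 in Ppy cells without single libraries, and 1 in Ppy cells with limma-voom and with stricter limits. Without the filter, 2865, 2984, 2723, 2116, 996 and 1445 genes were called for β/α, β/δ, β/Ppy, α/δ, α/Ppy and δ/Ppy cells. Scaling by total UMIs alone, chosen after seeing the data, called 2284 for β/δ, 1258 for α/Ppy and 2295 for δ/Ppy, and moved the median gene by -0.37, -0.56, 0.11, -0.19, 0.48 and 0.67 over the same 6 pairs. The share of calls that were higher was then 27.1, 12.6, 26.1, 89.0 and 92.9% for β/α, β/δ, α/δ, α/Ppy and δ/Ppy, against 51.9, 40.6, 36.6, 49.0 and 62.6% with TMM. On that scaling β against δ cells gave 3.87 for *Ucn3*, 1.18 for *Pdyn* and 1.24 for *Adra2a*. Of all 40 pairs of member and type, with no limit on UMIs, 1 had thinned shares that did not overlap. The number was 3 with all UMIs, with stricter limits and with looser limits. In these settings 9.87, 9.20 and 9.09% of all pairs of gene and type with at least 30 UMIs did not overlap. The 3 with all UMIs included *Sstr2* in β cells, at 18 UMIs, so the 2 sets of pairs are not alike. With the share expected over all thinning draws, chosen after seeing the data, the member pairs numbered 0, against 8.79% of all pairs with at least 30 UMIs. The cause of these shifts was not tested. Members with few UMIs, such as *Crhr2* and *Nrg1*, are limited by depth.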
